A study of Mus musculus with 24 samples.

Results

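The genes described here encode enzymes that break down branched-chain amino acids, and they were followed in the hearts of mice with experimental autoimmune myocarditis (EAM). The set holds 10 genes, chosen by name from the textbook pathway, and all 10 were found in the deposited count table of 41388 genes. They are Bcat2, Bckdha, Bckdhb, Dbt, Bckdk, Ppm1k, Ivd, Mccc1, Mccc2 and Auh. The study sequenced mRNA from a portion of each of 24 hearts to follow gene expression over the days after immunisation.

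All mice were wild-type male BALB/cAnNCrl mice (Balb/c in the labels), immunised as young adults. EAM mice were injected with 100 μg of a cardiac myosin heavy chain peptide in supplemented complete Freund's adjuvant (SCFA) on day 0 and again on day 7, with pertussis toxin (PTX) on day 0. Control mice had the same adjuvant and toxin on the same days, with PBS in place of the peptide, so every heart came from a mouse given adjuvant and PTX. There were 4 EAM and 4 control hearts at each of day 10 (D10), day 15 (D15) and day 21 (D21). The study favoured inflamed hearts for RNA where possible, since not every immunised mouse may fall ill. At D10 flow cytometry gave no raised leucocyte share in its EAM mice. Each library stands for 1 mouse. No gene was deleted or overexpressed.

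Leucine, isoleucine and valine are broken down in mitochondria. The transaminase Bcat2 removes the amino group, and the branched-chain ketoacid dehydrogenase (BCKDH) complex then makes the irreversible step to a CoA ester. Bckdha and Bckdhb encode the subunits of its E1 component, Dbt encodes its E2 core, and the E3 subunit is shared with the pyruvate and oxoglutarate dehydrogenases. The kinase Bckdk switches the complex off by phosphorylating E1, and the phosphatase Ppm1k switches it on again. Past the complex, leucine carbon runs through Ivd, the carboxylase made of Mccc1 and Mccc2, and Auh, and ends as acetyl-CoA and acetoacetate. Cardiac muscle is rich in these enzymes, and the pathway is known for its lowered activity in the failing heart.

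The 24 libraries held 15814863 to 24980864 counted reads, with a median of 19469782. Levels are given as read counts in CPM, a share of all counted reads, after TMM scaling, which assumes most genes do not differ between libraries. Every heart expressed the 12 cardiomyocyte markers at a high level (Myh6, Tnnt2, Ttn and others), with a summed level of 46960 to 57662 CPM in the 12 controls. Libraries also differed in atrial transcripts. The 6 atrial markers (Sln, Myl7, Myl4, Nppa, Bmp10 and Dkk3) summed to 242 to 551 CPM in D10 controls, 276 to 2683 CPM in D15 controls and 1921 to 3040 CPM in D21 controls. In EAM hearts they summed to 631 to 2244 CPM at D10, 660 to 1901 CPM at D15 and 95.2 to 248 CPM at D21. The D21 EAM libraries also carry another library code in the labels than all other libraries, so at D21 EAM and library code cannot be told apart.

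In the 12 control hearts Bckdha was the most abundant of the 10 transcripts per kilobase, at 181.6 ± 20.5 CPM per kilobase (SD, n = 12), followed by Ivd at 131 ± 11.4 CPM per kilobase of its principal transcript. The same genes came first and second when the union of all annotated exons was used as the length, but the order of the others depended on that choice. Lowest per kilobase of principal transcript was Ppm1k, at 28.1 ± 2.19 CPM per kilobase. Dbt and Bckdk, at 39.7 ± 2.20 and 39.4 ± 1.53 CPM per kilobase, did not differ beyond their spread. The control hearts were close to each other: the median of the 10 genes in each control heart lay between 95.9% and 102.7% of the control mean of its day.

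Promoters are printed for the opposing phosphatase and kinase of the complex, which fell by different amounts at D15 in TMM-scaled CPM, and for the first enzymes of the leucine arm, of which Mccc2 fell furthest. The RefSeq table of promoter windows (GRCm38.p6, 250 bases before to 50 bases after a start site, read in the direction of the gene) had 11 windows for 9 of the 10 genes, with a second start for Bcat2 and Bckdhb. Capitals mark matches, on either strand, to CCAAT (the NF-Y box) or, in Mccc2, to CACGTG (the E-box), and a CCAAT and its reverse overlap in Mccc2.
Ppm1k, chr6:57535438-57535737, strand -: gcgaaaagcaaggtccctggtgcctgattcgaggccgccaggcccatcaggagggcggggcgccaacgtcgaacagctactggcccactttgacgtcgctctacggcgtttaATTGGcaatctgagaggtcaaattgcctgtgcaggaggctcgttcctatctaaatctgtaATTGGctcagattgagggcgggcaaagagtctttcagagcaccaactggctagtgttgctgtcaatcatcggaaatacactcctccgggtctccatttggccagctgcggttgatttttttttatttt
Bckdk, chr7:127903823-127904122, strand +: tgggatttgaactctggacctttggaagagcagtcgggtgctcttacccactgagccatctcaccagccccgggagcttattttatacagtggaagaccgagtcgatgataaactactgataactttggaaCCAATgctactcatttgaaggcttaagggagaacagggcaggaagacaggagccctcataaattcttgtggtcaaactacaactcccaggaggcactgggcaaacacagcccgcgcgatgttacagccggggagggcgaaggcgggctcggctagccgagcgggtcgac
Ivd, chr2:118861744-118862043, strand +: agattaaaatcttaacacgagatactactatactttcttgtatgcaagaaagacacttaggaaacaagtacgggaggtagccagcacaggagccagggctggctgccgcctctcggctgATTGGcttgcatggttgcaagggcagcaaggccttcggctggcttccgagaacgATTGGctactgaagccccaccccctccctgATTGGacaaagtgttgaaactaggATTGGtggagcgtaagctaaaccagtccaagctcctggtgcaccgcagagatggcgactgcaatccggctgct
Mccc1, chr3:36000629-36000928, strand -: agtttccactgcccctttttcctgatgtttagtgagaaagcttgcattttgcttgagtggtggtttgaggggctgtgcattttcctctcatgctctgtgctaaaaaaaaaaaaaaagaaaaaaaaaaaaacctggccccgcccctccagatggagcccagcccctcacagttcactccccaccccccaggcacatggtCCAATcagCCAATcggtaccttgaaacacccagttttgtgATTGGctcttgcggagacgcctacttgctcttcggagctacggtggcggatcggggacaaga
Mccc2, chr13:100015590-100015889, strand -: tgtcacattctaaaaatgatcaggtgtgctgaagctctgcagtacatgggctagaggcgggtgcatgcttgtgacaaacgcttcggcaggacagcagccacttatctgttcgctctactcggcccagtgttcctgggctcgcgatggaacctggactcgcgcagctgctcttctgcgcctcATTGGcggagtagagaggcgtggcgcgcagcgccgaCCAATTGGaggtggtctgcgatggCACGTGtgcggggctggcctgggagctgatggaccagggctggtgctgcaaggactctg
The NF-Y box stood in 7 of the 11 windows, against 37.4% of the 32851 windows of the table. Ivd held 4 copies, Mccc1 and Mccc2 held 3 each, Ppm1k 2 and Bckdk 1. CACGTG was found in 1 of the 11 windows and in 7.15% of all windows. TCAAGGTCA, the element of the oestrogen-related receptors, was in 0 of the 11 (0.423% of all windows), and GCATGCGC, the core of NRF1 sites, in 0 of the 11 (2.71% of all windows). The windows of Bcat2, Bckdha and Auh held none of the motifs searched. These are matches of letters and no evidence of binding.

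At D15, the day with the highest median of the leucocyte marker sum, all 10 genes were lower in EAM hearts than in controls in TMM-scaled CPM, while relative to cardiomyocyte markers or respiratory chain genes Bcat2, Bckdk and Mccc1 were not lower. All 10 passed edgeR's quasi-likelihood test at FDR under 0.01, against 31.1% of the 15693 genes tested, and 8 of them also fell at least 2-fold, against 12.9% of all genes tested. Their median log2 fold change was -1.41, and that of all genes tested lay within 0.04 of 0. For each of the 10 genes every EAM heart lay below every control heart, which held for 35.9% of all genes tested. Mccc2 fell furthest, and Bcat2 and Bckdk fell least. A fall in a bulk sample can mean fewer cells of a type or less RNA per cell, and these cannot be told apart here. All 12 cardiomyocyte markers had a log2 fold change below 0 at D15, and 11 passed as lower (summed level 13012 to 31515 CPM in EAM hearts, against 46960 to 53939 CPM in controls). All 7 endothelial markers passed as lower in TMM-scaled CPM (766 to 840 CPM against 1117 to 1454 CPM). Relative to cardiomyocyte markers or respiratory chain genes all 7 were above 0. In TMM-scaled CPM all 14 leucocyte markers were above 0 and 12 passed as higher (3575 to 5146 CPM against 470 to 549 CPM). Of all genes tested, 33.2% passed as higher at D15. Of 8 fibroblast markers 7 were above 0 and 5 passed as higher (summed level 8327 to 17345 CPM in EAM hearts, against 2026 to 2601 CPM in controls). The atrial marker sums overlapped between the groups at D15 only through control replicate 4, at 276 CPM. Control replicates 1 to 3 were at 2039, 2683 and 2395 CPM, and the EAM hearts at 660 to 1901 CPM. All 6 atrial markers were below 0 and 0 passed, and their part in the D15 values was not tested.

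**Figure D1:**
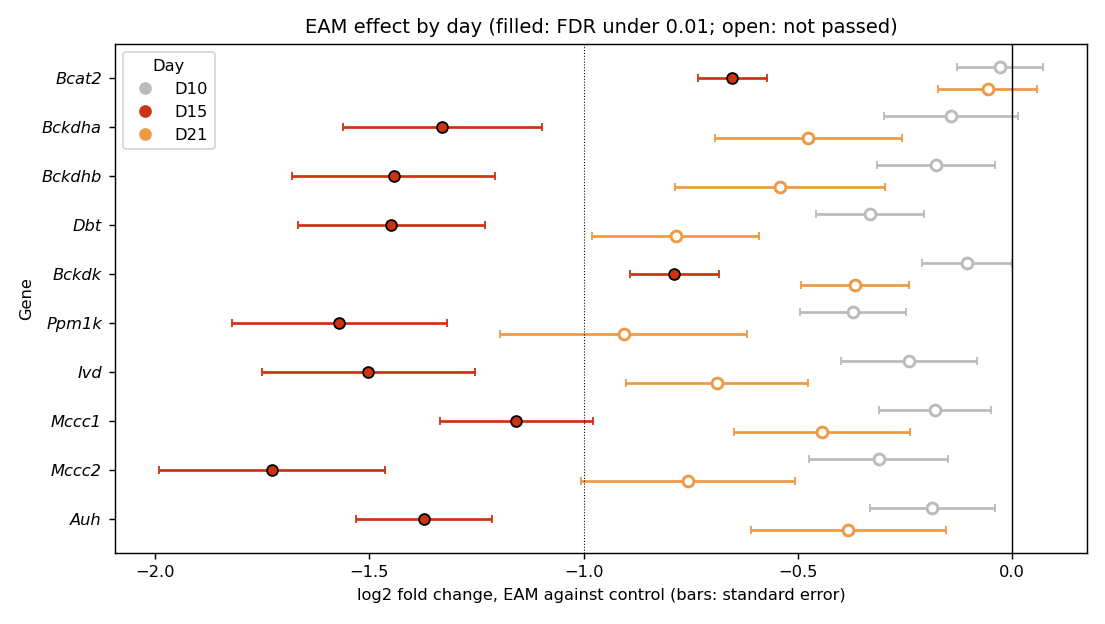
The plot of the EAM effect by day gives the log2 fold change of each of the 10 genes (x axis, bars standard errors, 4 EAM against 4 control hearts) at D10, D15 and D21, with filled points for FDR under 0.01 and a dotted line at a 2-fold fall. The D15 points lie between -1.73 (Mccc2) and -0.65 (Bcat2), all filled, and the D10 and D21 points are open. Values are on the TMM scale, and the D15 values of Bcat2, Bckdk and Mccc1 lie above 0 when scaled to cardiomyocyte markers or respiratory chain genes.

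Bcat2 (chr7:45570153-45589711, GRCm38, plus strand) encodes the mitochondrial transaminase of the first step. At D15 its level was 130.1, 135, 131 and 134 CPM in the control hearts and 78.2, 77.2, 96.9 and 76.4 CPM in the EAM hearts. The groups stood well apart, with 3 EAM hearts close together and replicate 3 above them, and Bcat2 fell by 36.4% in TMM-scaled CPM (log2 fold change -0.65 ± 0.08 (SE), adjusted p = 7.06e-05) but stood at 0.68 relative to cardiomyocyte markers. At D10 it was 149, 143, 147 and 143 CPM in controls and 119.7, 147, 169 and 140.1 CPM in EAM hearts. At D21 it was 129, 131, 119 and 129 CPM in controls and 112, 128, 147 and 96.2 CPM in EAM hearts. EAM and control hearts overlapped on both of these days, and the log2 fold changes of -0.03 ± 0.10 and -0.06 ± 0.12 (SE) had adjusted p-values of 0.89 and 0.72. Of its annotated exon bases, 15.9% lie opposite an antisense gene, and the sources used here do not say whether the counting used strand.

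Bckdha (chr7:25629946-25658981, minus strand), the alpha subunit of E1 and the target of the kinase, fell by 60.2% at D15 (log2 fold change -1.33 ± 0.23 (SE), adjusted p = 0.000604). Its D15 level was 322, 342, 333 and 319 CPM in controls and 138, 76.3, 189 and 107 CPM in EAM hearts, so the highest EAM heart was still far below the lowest control. At D10 it was 374, 375, 424 and 398 CPM in controls and 252, 447, 381 and 357 CPM in EAM hearts, and the groups overlapped. D21 levels were 325, 312, 299.9 and 314 CPM in controls and 199, 266, 298 and 129 CPM in EAM hearts. The D21 groups did not overlap, by a narrow margin, and the log2 fold change of -0.48 ± 0.22 (SE) did not pass (adjusted p = 0.119). Of the exon bases of Bckdha, 61.7% lie opposite exons of B3gnt8. B3gnt8 was at 3.63 CPM or more in every heart and averaged 10.5 CPM in D15 EAM hearts, and Bckdha was at 76.3 CPM or more in every heart.

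Bckdhb (chr9:83925145-84124240, plus strand), the beta subunit of E1, moved with its partner. At D15 it was 98.0, 111, 109.8 and 112 CPM in controls and 37.0, 25.5, 61.7 and 30.5 CPM in EAM hearts, and it fell by 63.2% (log2 fold change -1.44 ± 0.24 (SE), adjusted p = 0.000403). Its D10 levels were 102, 104, 121 and 111 CPM in controls and 71.3, 112, 110.1 and 97.5 CPM in EAM hearts. By D21 it stood at 97.3, 107, 91.3 and 99.7 CPM in controls and 53.8, 80.4, 97.5 and 37.9 CPM in EAM hearts. EAM hearts ran from well below the controls to within their range at D21, and neither day passed (adjusted p = 0.491 at D10 and 0.116 at D21).

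Dbt (chr3:116513070-116549981, plus strand) encodes the E2 core that carries the acyl group. Its D15 level was 124, 133, 133 and 133 CPM in controls and 42.8, 31.8, 72.6 and 39.5 CPM in EAM hearts, and it fell by 63.4% (log2 fold change -1.45 ± 0.22 (SE), adjusted p = 0.000235). Dbt was among the genes with no overlap between the groups on all 3 days. At D10 it was 132, 134, 141 and 145 CPM in controls and 83.3, 128, 110.1 and 121 CPM in EAM hearts (log2 fold change -0.33 ± 0.13 (SE), adjusted p = 0.328). At D21 it was 130.3, 124, 122 and 122 CPM in controls and 58.0, 85.2, 96.3 and 46.9 CPM in EAM hearts. The D21 log2 fold change of -0.79 ± 0.20 (SE) had the lowest adjusted p of the 10 genes on that day, 0.0196, and did not pass at 0.01.

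**Figure D2:**
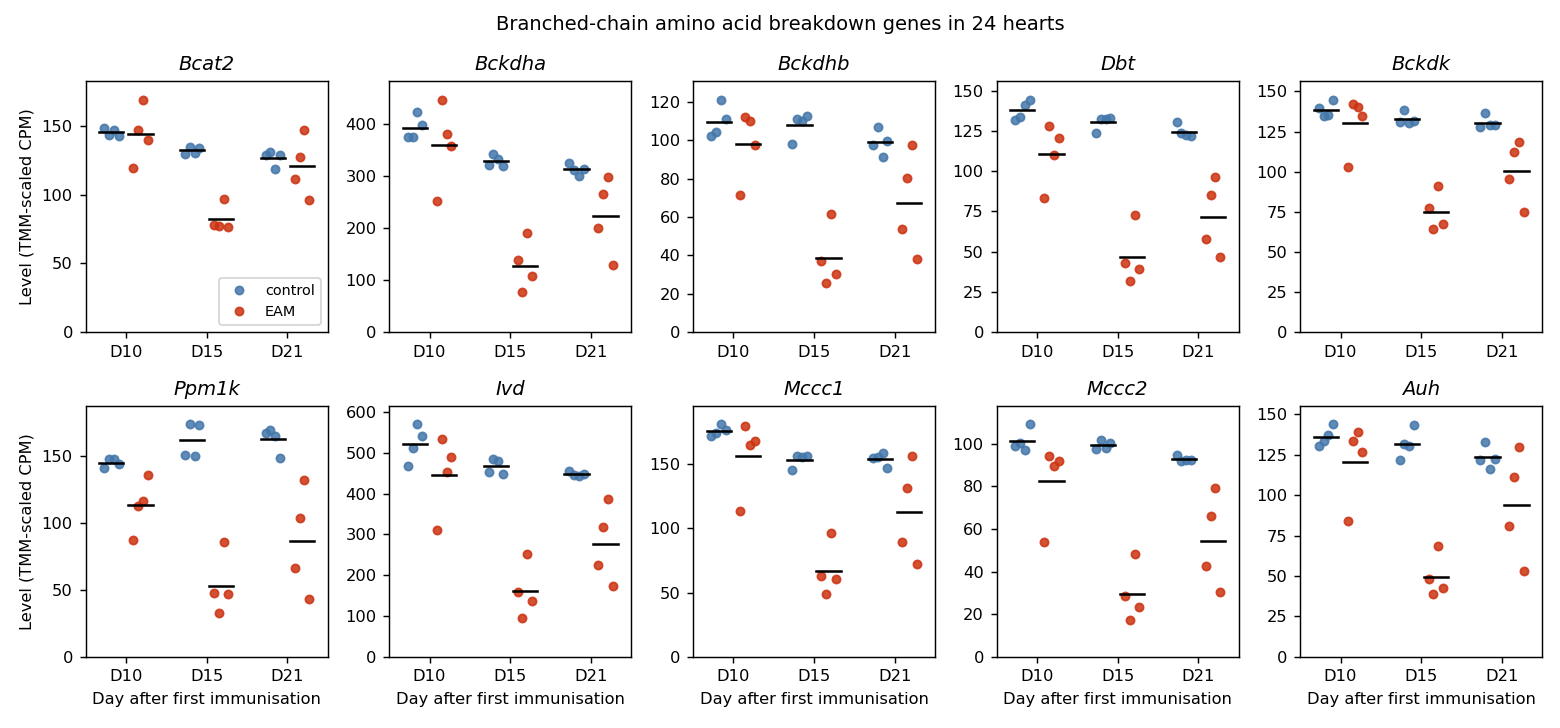
The plot of levels by heart gives TMM-scaled CPM (y axis, from 0) for each of the 10 genes in control (blue) and EAM (red) hearts at D10, D15 and D21, 1 point per heart in replicate order from left to right, with a bar at the mean of 4 hearts. At D15 every red point lies below every blue point in all 10 panels on this TMM scale, and EAM replicate 3 is the highest red point of its day. On the marker scales, which shift all genes tested, Bcat2 and Bckdk lay above 0 at D15 and Mccc1 lay near 0 (0.10 and 0.01).

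The regulators of the complex differed in how far they fell. Bckdk (chr7:127904082-127910221, plus strand), the kinase that holds the complex inactive, was at 131, 139, 130.5 and 132 CPM in D15 controls and 77.6, 64.0, 90.8 and 67.6 CPM in D15 EAM hearts. It fell by 42.1% in TMM-scaled CPM (log2 fold change -0.79 ± 0.10 (SE), adjusted p = 1e-04) but stood at 0.53 relative to cardiomyocyte markers. Ppm1k (chr6:57506502-57535468, minus strand), the phosphatase that activates the complex, was at 151, 173, 149.6 and 173 CPM in D15 controls and 47.5, 32.4, 85.8 and 46.7 CPM in D15 EAM hearts. It fell by 66.3% (log2 fold change -1.57 ± 0.25 (SE), adjusted p = 0.000347). Both genes kept EAM and control hearts apart at D15, and the EAM hearts were spread more widely for the phosphatase than for the kinase.

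At D10 Bckdk was at 139.8, 135, 135 and 145 CPM in controls and 103, 142, 140.3 and 134 CPM in EAM hearts, overlapping groups. Ppm1k was at 141, 148, 147 and 144 CPM in controls and 87.1, 113, 116 and 136 CPM in EAM hearts, below every control, with the largest D10 log2 fold change of the 10 genes (-0.37 ± 0.12 (SE), adjusted p = 0.328). At D21 Bckdk was at 128, 137, 129 and 129 CPM in controls and 95.2, 112, 118 and 74.9 CPM in EAM hearts (log2 fold change -0.37 ± 0.13 (SE), adjusted p = 0.053). D21 levels of Ppm1k were 167, 169, 165 and 148 CPM in controls and 66.4, 104, 132 and 42.7 CPM in EAM hearts (log2 fold change -0.91 ± 0.29 (SE), adjusted p = 0.0419). Neither gene overlapped between the D21 groups, and neither passed at 0.01.

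In the leucine arm Ivd (chr2:118861954-118882909, plus strand), isovaleryl-CoA dehydrogenase, was at 453, 486, 480.0 and 448 CPM in D15 controls and 158, 95.5, 253 and 136 CPM in D15 EAM hearts. Ivd fell by 64.7% (log2 fold change -1.50 ± 0.25 (SE), adjusted p = 0.000433), with the EAM hearts spread over a wider range than the controls. D10 levels were 468, 510.5, 569.8 and 541 CPM in controls and 312, 533, 453 and 488 CPM in EAM hearts, and the groups overlapped. D21 levels were 455, 445, 442 and 447 CPM in controls and 225, 318, 386 and 173 CPM in EAM hearts. All 4 EAM hearts were below the controls at D21, without passing (log2 fold change -0.69 ± 0.21 (SE), adjusted p = 0.0388).

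Mccc1 (chr3:35959312-36000678, minus strand) and Mccc2 (chr13:99948530-100015639, minus strand) encode the alpha and beta subunits of methylcrotonyl-CoA carboxylase, and they fell by unequal amounts. At D15 Mccc1 was at 145, 156, 155 and 156 CPM in controls and 62.6, 48.7, 96.6 and 60.4 CPM in EAM hearts, and it fell by 55.2% in TMM-scaled CPM (log2 fold change -1.16 ± 0.18 (SE), adjusted p = 0.000275), with a value of 0.10 relative to cardiomyocyte markers. Mccc2 was at 97.6, 102, 98.0 and 100.2 CPM in D15 controls and 28.7, 17.1, 48.2 and 23.3 CPM in EAM hearts. It fell by 69.8% (log2 fold change -1.73 ± 0.26 (SE), adjusted p = 0.000257), and it was the lowest of the 10 genes, as a share of the control mean, in all 4 D15 EAM hearts.

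At D10 Mccc1 was at 172, 174, 181 and 177 CPM in controls and 114, 179.8, 165 and 168 CPM in EAM hearts. Mccc2 was at 98.9, 100.3, 97.1 and 109 CPM in D10 controls and 54.1, 94.1, 89.6 and 91.9 CPM in EAM hearts, with no overlap, although its log2 fold change of -0.31 ± 0.16 (SE) did not pass (adjusted p = 0.358). In 3 of the 4 EAM hearts Mccc2 lay just under the lowest control, and replicate 1 was much lower. At D21 Mccc1 was at 155, 156, 159 and 147 CPM in controls and 89.5, 131, 156 and 72.6 CPM in EAM hearts. Mccc2 was at 94.5, 91.9, 92.6 and 92.4 CPM in D21 controls and 42.4, 66.1, 79.4 and 30.5 CPM in EAM hearts. Mccc1 overlapped between the D21 groups and Mccc2 did not (adjusted p = 0.122 and 0.0472).

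Auh (chr13:52835119-52929681, minus strand), the hydratase that follows the carboxylase, was at 122, 132, 130.4 and 143 CPM in D15 controls and 48.2, 39.2, 68.6 and 42.7 CPM in D15 EAM hearts. It fell by 61.4% (log2 fold change -1.37 ± 0.16 (SE), adjusted p = 4.72e-05). D10 levels were 130.2, 133, 137 and 144 CPM in controls and 84.0, 133, 139 and 127 CPM in EAM hearts. D21 levels were 122, 133, 116 and 122 CPM in controls and 81.1, 112, 129.7 and 53.0 CPM in EAM hearts. EAM and control hearts overlapped on both days (adjusted p = 0.491 and 0.213).

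At D10, 0 of the 10 genes passed edgeR's test, and 0.0% of the 15029 genes tested passed as lower. All 10 log2 fold changes were below 0 on the TMM scale, from -0.37 to -0.03 with a median of -0.18, and 7 of them were above 0 when scaled to cardiomyocyte markers and 2 when scaled to respiratory chain genes. At an unadjusted p under 0.05 the test gave 833 lower and 1459 higher genes, and DESeq2 passed 0 of the 10 as well. For Dbt, Ppm1k and Mccc2 every EAM heart was below every control, as for 3.75% of all genes tested. One heart stood apart: in D10 EAM replicate 1 all 10 genes were at their lowest of the group, with a median of 63.0% of the control mean, against 93.4% to 101.6% in the other EAM hearts. Without it Bcat2 turned to 0.05 and the other 9 log2 fold changes lay nearer to 0, with Bckdha at -0.0029, Bckdk at -0.0069, Auh at -0.04, Bckdhb at -0.05, Mccc1 at -0.05, Ivd at -0.10, Mccc2 at -0.15, Dbt at -0.22 and Ppm1k at -0.26. The same heart had the lowest cardiomyocyte marker sum of the D10 hearts (30113 CPM) and the highest leucocyte marker sum (3398 CPM). Atrial markers were higher in every D10 EAM heart than in every D10 control, and 0 of the 6 passed; their part in these values was not tested.

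At D21 the 10 genes were between those levels. All 10 log2 fold changes were below 0 on the TMM scale, from -0.91 to -0.06 with a median of -0.51 (2 were above 0 on the cardiomyocyte marker scale and 1 on the respiratory chain scale), and 0 of 10 passed at FDR under 0.01 with edgeR, against 3.1% of the 15266 genes tested that passed as lower. At an unadjusted p under 0.05 the same test gave 3237 lower and 3846 higher genes. With DESeq2 Dbt passed (log2 fold change -0.78, adjusted p = 0.00178), the 1 gene of the 10 that did, beside 10.8% of all genes tested that passed as lower. Dbt, Ppm1k, Ivd and Mccc2 would pass at an FDR of 0.05, as would 13.8% of all genes tested as lower. For 6 of the 10 genes every EAM heart was below every control heart, as for 18.7% of all genes tested. The hearts differed widely: the median of the 10 genes was 56.2%, 83.2%, 93.1% and 39.9% of the control mean in D21 EAM replicates 1 to 4. Without replicate 3, the heart closest to the controls, Dbt, Ppm1k, Ivd and Mccc2 passed (log2 fold changes -0.96, -1.18, -0.89 and -0.99, adjusted p = 0.00384, 0.00672, 0.00587 and 0.00788), and 10.4% of all genes tested passed as lower. Without replicate 4, the lowest heart, Bcat2 turned to 0.03, Bckdha stood at -0.29, Bckdhb at -0.35, Mccc1 at -0.29 and Auh at -0.19, and 0 of the 10 passed.

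Other markers moved at D21 as well. All 6 atrial markers were lower in EAM hearts and passed (median log2 fold change -7.02). The 7 adipocyte markers summed to 0.221 to 7.63 CPM in EAM hearts, with Lep and Ucp1 at 0 in all 4, against 19.6 to 60.7 CPM in controls, and 1 of 5 tested passed as lower. All 12 leucocyte markers tested were above 0 and 9 passed as higher (1315 to 4300 CPM against 407 to 707 CPM), where 4.71% of all genes tested passed as higher. Of 8 fibroblast markers 6 were above 0 and 4 passed as higher (5121 to 15376 CPM against 2346 to 2975 CPM). Endothelial markers summed to 798 to 1294 CPM in EAM hearts and 1329 to 1588 CPM in controls, and 1 of 7 passed as lower. The part of these markers and of the sampled region of the heart in the D21 values of the 10 genes was not tested.

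The change of the EAM effect from D10 to D15 was tested in a fit of all 24 hearts. On the TMM scale the effect became more negative for all 10 genes (for 7 of 10 on either marker scale), and 9 passed, against 16.7% of the 16318 genes tested. On either marker scale 0 of the 10 passed. The median change of all genes tested was 1.0845 on the cardiomyocyte marker scale and 1.088 on the respiratory chain scale (log2). Most genes thus had a change above 0 on these scales. With 1 library left out the count ran from 3 to 10: it was 3 without D10 EAM replicate 2 or D15 EAM replicate 4 (10.5% and 10.6% of all genes tested), 5 without D10 control replicate 1 or D15 EAM replicate 2 (12.2% and 10.3%), and 6 or more without any other library. Mccc2 changed by -1.46 ± 0.37 (SE, log2, adjusted p = 0.00439) and Bcat2 by -0.68 ± 0.15 (SE, log2, adjusted p = 0.00279). Ppm1k changed by -1.25 ± 0.37 (SE, log2) and did not pass (adjusted p = 0.0107). From D15 to D21 the effect became less negative for all 10 genes by 0.44 to 1.02 in log2 units on the TMM scale, and for 4 and 2 of them on the cardiomyocyte marker and respiratory chain scales. Bcat2 was the 1 gene of the 10 that passed (0.62 ± 0.15 (SE), adjusted p = 0.00697), against 8.47% of genes that passed upward, and its change turned to -0.29 and -0.35 on the cardiomyocyte marker and respiratory chain scales. Auh had the largest change over that interval, 1.02 ± 0.29 (SE, log2), and did not pass (adjusted p = 0.0142). Both changes share the D15 hearts. The D21 EAM libraries alone carry another library code, so the change from D15 to D21 and library code cannot be told apart. Atrial markers were low in the same D21 EAM hearts, and their part in this change was not tested. Without D15 EAM replicate 3 the count that passed from D15 to D21 was 8 (12.7% of all genes tested), without D21 EAM replicate 4 it was 7 (16% of all genes tested), without D21 control replicate 2 or D21 EAM replicate 1 it was 1, and without any other D15 or D21 library it was 0. It was 0 once the replicate number was a block.

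Across single hearts the 10 genes followed the cardiomyocyte markers closely. In D15 EAM replicates 1 to 4 the median of the 10 genes was 35.5%, 24%, 56.4% and 31.3% of the control mean, beside cardiomyocyte marker sums of 18618, 13012, 31515 and 20413 CPM. Replicate 2 had the lowest value of its group for 9 of the 10 genes and the lowest cardiomyocyte sum, and replicate 3 had the highest of both. D21 EAM replicate 4 was the lowest of its group for all 10 genes and had the lowest cardiomyocyte sum of the D21 hearts (24726 CPM). In D21 EAM replicate 3, where the 10 genes were near control level, that sum was 53801 CPM.

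**Figure D3:**
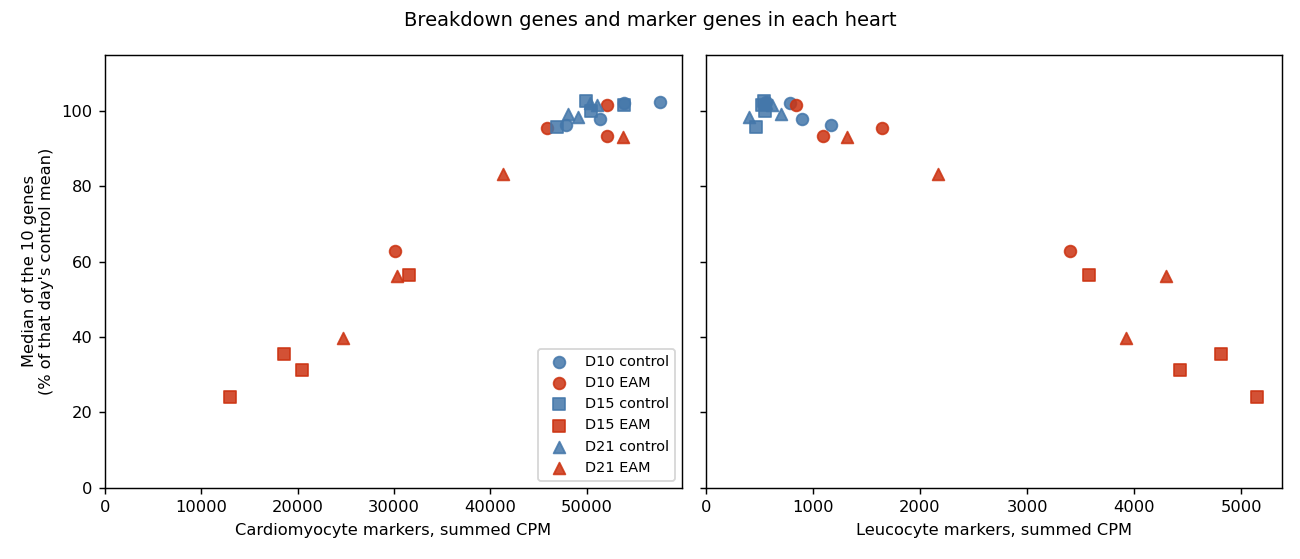
The plot of breakdown genes against marker genes has 1 point per heart, with the median of the 10 genes as a percentage of that day's control mean (y axis) against the summed CPM of the cardiomyocyte markers (left) and leucocyte markers (right). The 12 control hearts cluster between 95.9% and 102.7%, and EAM hearts run down to 24% as the cardiomyocyte sum drops to 13012 CPM and the leucocyte sum climbs to 5146 CPM.

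The D15 comparison was therefore repeated with each library scaled to its cardiomyocyte markers, which asks how the 10 genes moved relative to cardiomyocyte transcripts. Scaled this way, 0 of the 10 passed in either direction, where 1.22% of all genes tested passed as lower and 70.1% as higher. The log2 fold changes of the 10 genes ran from -0.52 (Mccc2, adjusted p = 0.0489) to 0.68 (Bcat2, adjusted p = 0.0156), and their median was -0.15. On this scale the median of all genes tested lies at 1.38 at D15, so most genes of the tissue have values above 0 on it. Scaled to 17 nuclear genes of the respiratory chain, on which the median of all genes tested lies at 1.27, the median of the 10 genes was -0.24. On this scale Mccc2 was lower (-0.60, adjusted p = 0.00435) and Bcat2 higher (0.57, adjusted p = 0.00556), and the other 8 did not pass, where 2.19% of all genes tested passed as lower and 71.8% as higher. The direction of Bcat2, Bckdk and Mccc1 at D15 thus depends on the scaling: they were lower in TMM-scaled CPM, and at 0.68, 0.53 and 0.10 relative to cardiomyocyte markers and 0.57, 0.42 and 0.01 relative to respiratory chain genes. The Mccc1 values on the marker scales lay near 0 (adjusted p = 0.674 and 0.933). The values of Bckdha, Bckdhb, Dbt, Ppm1k, Ivd, Mccc2 and Auh were below 0 on all 3 scales, but on the cardiomyocyte scale Auh was at -0.09 (adjusted p = 0.736), Bckdha at -0.10 (adjusted p = 0.693), Bckdhb and Dbt at -0.21, Ivd at -0.28 and Ppm1k at -0.35, and 0 of these passed.

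**Figure D4:**
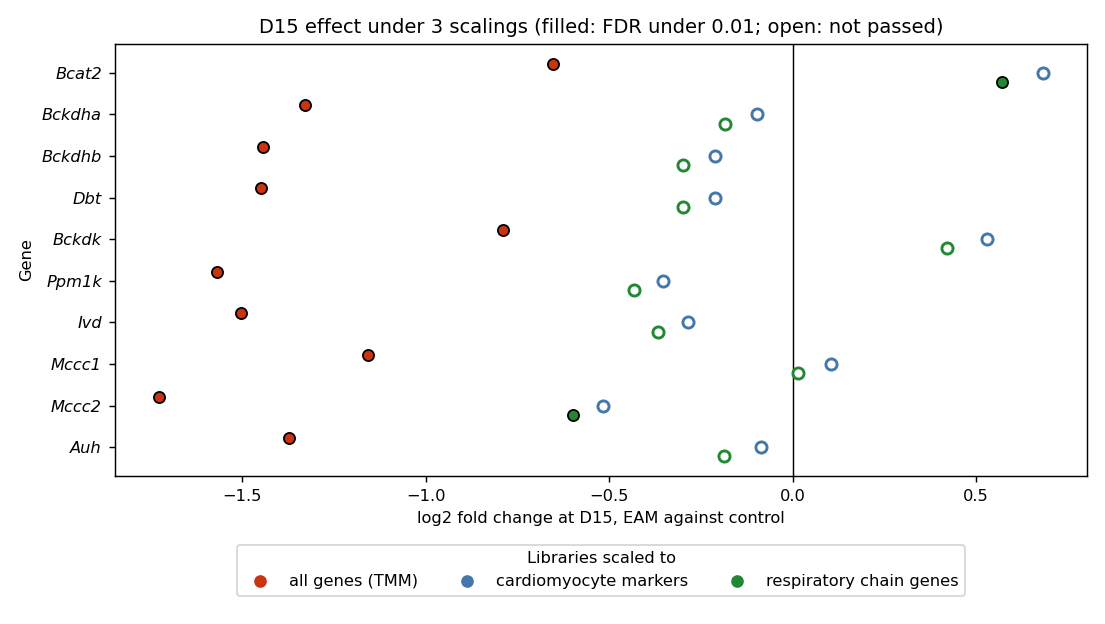
The plot of the D15 effect under 3 scalings gives the log2 fold change of each gene (x axis) with libraries scaled to all genes by TMM (red), to cardiomyocyte markers (blue) or to respiratory chain genes (green), filled where FDR is under 0.01. The red points lie at -0.65 or below, and the blue and green points lie around 0, from -0.60 for Mccc2 to 0.68 for Bcat2.

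As shares within the same heart the values were as follows. Relative to the cardiomyocyte marker sum, Bcat2 in D15 EAM hearts was at 161% ± 46.3 (SD, n = 4) of the control mean and Bckdk at 144% ± 34.2, both above every control, as were 71.9% of all genes tested. Ppm1k was at 78.3% ± 5.62, Mccc2 at 69.8% ± 9.71, Dbt at 86.4% ± 8.35 and Bckdhb at 86.4% ± 11.1, all below every control, as were 2.91% of all genes tested. The other 4, among them Bckdha at 93.5% ± 14, overlapped with the controls. At D21 Bcat2 was at 130.9% ± 20.7 of the control mean, above every control (16.8% of all genes tested), and Bckdk, at 105.3% ± 16, overlapped. At D21 Ppm1k was at 67.9% ± 10.8, Dbt at 76.4% ± 4.45, Ivd at 81.2% ± 3.40 and Mccc2 at 76.2% ± 8.20 of the control mean relative to these markers, all below every control (4.84% of all genes tested). Relative to the respiratory chain sum, 6 of the 10 genes lay below every control at D15 (4.22% of all genes tested) and 2 above (73.8%). At D21 8 lay below every control on that measure (8.28%) and 1 above (15.0%). Scaled fits at D21 passed 0 of the 10 genes, with adjusted p-values down to 0.041 for Ppm1k on the cardiomyocyte scale and 0.0189 for Dbt on the respiratory chain scale.

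Ratios within a heart need no scaling between libraries, and they are given as descriptions without a test, since they were picked with the values known. No share over other gene pairs was computed. Relative to the cardiomyocyte marker sum, 71.9% of all genes tested, Bckdk among them, lay above every control at D15. The part of the mix of cells in these ratios was not tested. The Ppm1k to Bckdk ratio, phosphatase to kinase, was 1.05 ± 0.05 (SD, n = 4) in D10 controls, 1.22 ± 0.08 in D15 controls and 1.24 ± 0.07 in D21 controls. The D10, D15 and D21 EAM hearts had ratios of 0.87 ± 0.10, 0.69 ± 0.19 and 0.83 ± 0.24. EAM hearts lay below all controls of their day at D15 and D21 and overlapped with them at D10. The Dbt to Bckdk ratio, E2 core to kinase, was lower in every EAM heart than in every control of the same day on all 3 days, at 0.61 ± 0.13 against 0.98 ± 0.04 at D15. The Bckdha to Bckdk ratio, kinase target to kinase, was 1.66 ± 0.37 against 2.48 ± 0.05 at D15, without overlap, and overlapped between EAM and control hearts at D10 and D21. The Mccc1 to Mccc2 ratio of the carboxylase subunits was 2.41 ± 0.38 in D15 EAM hearts and 1.54 ± 0.04 in controls, without overlap. The Bckdha to Bckdhb ratio of the E1 subunits overlapped between EAM and control hearts on every day (3.32 ± 0.35 against 3.06 ± 0.18 at D15).

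**Figure D5:**
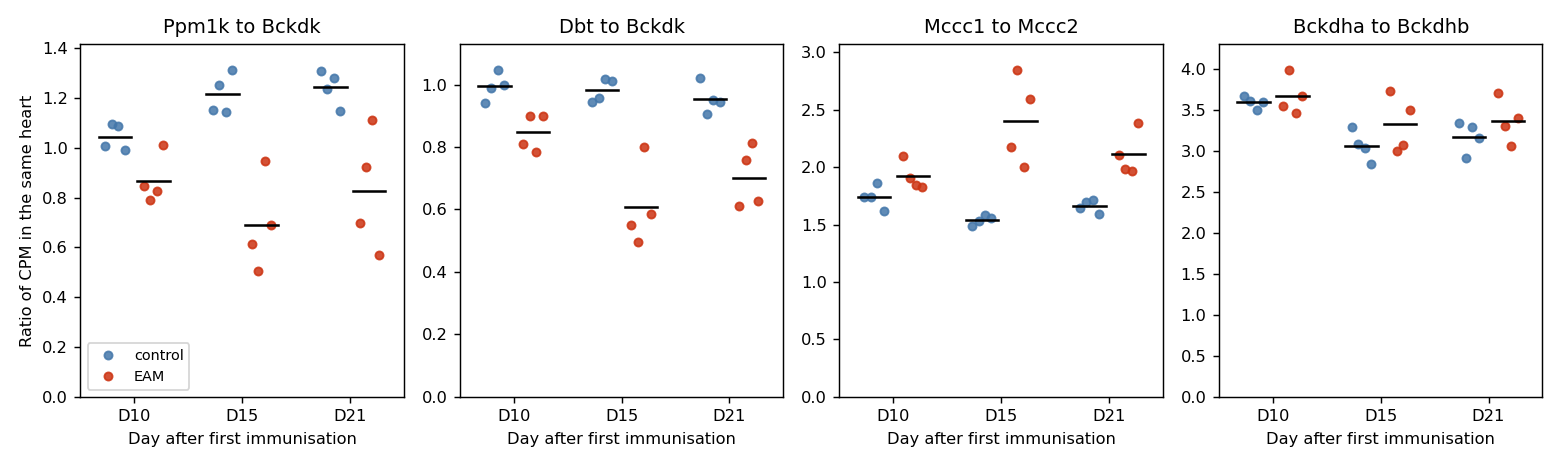
The plot of ratios gives, for each heart (points, 4 per group, bars at the mean), the ratio of CPM of 1 gene to another in the same heart (y axis, from 0) by day. The red EAM points lie under the blue control points for Ppm1k to Bckdk and Dbt to Bckdk at D15 and D21, above them for Mccc1 to Mccc2 on those days, and among them for Bckdha to Bckdhb.

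In the rest of the pathway, a list of 18 genes, 17 passed as lower at D15 in TMM-scaled CPM (31.1% of all genes tested), 13 of these by at least 2-fold (12.9% of all genes tested), with a list median of -1.36. The largest changes after Bcat1 were Hibch, the hydroxyisobutyryl-CoA hydrolase of valine breakdown (log2 fold change -1.54 ± 0.14 (SE), adjusted p = 9.75e-06), and Mmab, which makes the cofactor of methylmalonyl-CoA mutase (-1.53 ± 0.17 (SE), adjusted p = 3.08e-05). Bcat1, the cytosolic transaminase, went the other way. Its level was 3.28, 1.48, 1.55 and 2.06 CPM in D15 controls and 25.8, 29.7, 24.7 and 26.2 CPM in D15 EAM hearts. This rise was 12.9-fold (log2 fold change 3.69 ± 0.22 (SE), adjusted p = 6.25e-07), and the EAM hearts varied little. Of all genes tested, 33.2% passed as higher at D15. Leucocyte and fibroblast marker sums were higher in the same hearts, and their part in this rise was not tested. At D21 Bcat1 was at 10.9, 6.98, 3.21 and 23.96 CPM in EAM hearts and did not pass (adjusted p = 0.0203). At D10 and D21 0 of the 18 passed.

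Genes for branched-chain amino acid transport were higher rather than lower at D15: 5 of 6 passed as higher, against 33.2% of all genes tested. Slc7a8, a plasma membrane carrier of neutral amino acids, rose 6.76-fold (log2 fold change 2.76 ± 0.19 (SE), adjusted p = 1.6e-06). Slc43a2 rose 3.27-fold (1.71 ± 0.14 (SE), adjusted p = 4.7e-06) and Slc7a5 2.76-fold (1.46 ± 0.14 (SE), adjusted p = 1.59e-05). The sixth, Slc25a44, which carries these amino acids into mitochondria and was singled out with its values known, was at 39.1 to 44.6 CPM in D15 controls and 35.4 to 41.1 CPM in EAM hearts (log2 fold change -0.08 ± 0.07 (SE), adjusted p = 0.301). At D10 and D21 0 of the 6 passed. Leucocyte marker sums were higher in the same D15 hearts, and their part in these rises was not tested.

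Of 4 transcriptional regulators of cardiac metabolism, all 4 were below 0 at D15 in TMM-scaled CPM and 3 passed as lower (31.1% of all genes tested). Esrra and Klf15 were above 0 (0.32 and 0.15) relative to cardiomyocyte markers. Ppara, the nuclear receptor of fatty acid use, had a log2 fold change of -2.06 ± 0.26 (SE, adjusted p = 7.34e-05), its partner Ppargc1a one of -1.45 ± 0.24 (SE, adjusted p = 0.00042) and Esrra one of -1.01 ± 0.09 (SE, adjusted p = 1.03e-05). Klf15, a factor known to drive these breakdown genes in the heart, had a D15 value of -1.09 ± 0.31 (SE) and did not pass (adjusted p = 0.0107). Klf15 also varied among the D15 controls, from 42.3 to 88.8 CPM. Of the 4 regulators 0 passed at D10 or D21.

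Of 12 genes of the sister complexes, the pyruvate and oxoglutarate dehydrogenases with their kinases and phosphatases, 11 fell and 1 rose at D15 in TMM-scaled CPM, against 31.1% and 33.2% of all genes tested. Pdk4 fell by 72.4% (log2 fold change -1.86 ± 0.44 (SE), adjusted p = 0.00351) and Pdk2 by 67.4% (-1.62 ± 0.26 (SE), adjusted p = 0.000344), and both encode kinases that hold the pyruvate complex inactive. Pdk3, another kinase of that complex, rose 4.17-fold (2.06 ± 0.14 (SE), adjusted p = 1.73e-06). Pdk4 was the 1 gene of the 12 to pass at D21 (-1.48 ± 0.25 (SE), adjusted p = 0.00696), where 3.1% of all genes tested passed as lower. All 17 genes of the TCA cycle (median -1.26), 17 of 17 of beta-oxidation (median -1.49) and 17 of 17 of the respiratory chain (median -1.25) also fell at D15, so the median of -1.41 of the 10 genes lay between those of these lists.

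The lists were read on the marker scales too, where all genes tested have the medians given above. Scaled to cardiomyocyte markers, 0 of the 18 other pathway genes passed as lower at D15 and 2 as higher (median -0.09), and 10 of the 18 values were below 0. Of the 17 TCA cycle genes 0 passed (median 0.0035), of 12 genes of the sister complexes 0 passed as lower and 1 as higher (median -0.08), and of 17 beta-oxidation genes 1 passed as lower (median -0.26). Ppara was the 1 regulator that still passed as lower (-0.84, adjusted p = 0.00297). On this scale 1.22% of all genes tested passed as lower and 70.1% as higher. All 6 transport genes passed as higher (median 2.84), as did Bcat1 (5.08, adjusted p = 4.71e-10) and Pdk3 (3.44, adjusted p = 1.38e-08). Relative to respiratory chain genes 0 of the 18 other pathway genes passed as lower and 2 as higher (median -0.18). On that scale 1 of 17 TCA cycle genes (median -0.09) and 4 of 17 beta-oxidation genes (median -0.35) passed as lower, against 2.19% of all genes tested. All 6 transport genes passed as higher (median 2.72), against 71.8% of all genes tested.

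The genes most like the 10 in profile were sought among 14270 genes that averaged 1 CPM or more. Over all 24 hearts they were Hadh of beta-oxidation (Pearson r = 0.997 with the mean centred log2(CPM + 1) of the 10 genes), Nipsnap2, Pdk2, Sdha and Foxred1. After each group's mean was subtracted they were Acadvl (r = 0.994), Idh3g, Fem1a, Ndrg2 and Coq10a. These points share their libraries and their depth. Pairs among the 10 genes correlated with a median r of 0.98 over 24 hearts and 0.95 after group means were subtracted (45 pairs, 0.81 to 0.98). Bcat2 had the lowest correlation with the mean of all 10 genes, itself included (r = 0.938 over 24 hearts).

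Control hearts were also compared between days after the adjuvant. From D10 to D15 0 of the 10 genes passed, against 0.0% of the 14926 genes tested (1240 lower and 1236 higher at an unadjusted p under 0.05). From D10 to D21 Bckdha fell by 20.1% (log2 fold change -0.32 ± 0.05 (SE), adjusted p = 0.00757), the 1 gene of the 10 that passed, against 0.637% of the 15063 genes tested, and it did not pass once the replicate number was a block (adjusted p = 0.0528) or when any of 7 of the 8 libraries was left out (adjusted p = 0.0143 to 0.0293). Ppm1k was the 1 gene of the 10 with a value above 0, at 0.17 ± 0.05 (SE, log2, adjusted p = 0.0654). The atrial markers were higher in D21 than in D10 controls, and their part in this difference was not tested.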

How the data were processed

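RNA from a portion of each of 24 mouse hearts (4 EAM and 4 control hearts at D10, D15 and D21) was sequenced as polyadenylated mRNA with a directional kit. The authors aligned read pairs to GRCm38 with HISAT2 2.0.4, removed duplicates with Picard and counted reads per Ensembl gene with featureCounts, and they deposited the counts without normalization. The sources used here do not give the strand setting of the counting. Sample files and the table of the whole series differed in 0 cells. The 92 spike-in rows held 0 reads and were left out. Groups and replicate numbers came from the sample titles. Nothing in the labels says what a replicate number marks.

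Symbols and positions were taken from GENCODE M21 (GRCm38). Counts were tested with edgeR 4.0.16 in R 4.3.3: a gene was kept if 4 or more of the samples fitted had 10 or more reads, with TMM scaling, the quasi-likelihood test and Benjamini-Hochberg adjustment over all genes kept. A gene passed at FDR under 0.01, and a second limit asked for at least a 2-fold change as well. Each day was fitted on its 8 hearts, changes of the EAM effect between days on all 24, and control days on 8 controls. Printed levels are CPM after TMM over all 24 libraries. Two-sided p-values measure the spread between these hearts.

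The 10 genes, the other lists and the tests were chosen with earlier results of these data known. Genes named are the 10, the 4 regulators, the 3 genes with the largest absolute log2 fold change at D15 of the lists of other pathway genes, transport and sister complexes, and the 5 genes most alike in profile. Sdha and Sdhb are in both the respiratory chain and TCA cycle lists, Ogdh and Dlst in both the sister complex and TCA cycle lists, and Echs1 in both the beta-oxidation list and that of other pathway genes.

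Alternatives were DESeq2 1.42.0, limma 3.58.1 (voom), the likelihood ratio test, the older quasi-likelihood form (added after the data were seen), other scalings, no filter on low counts, an FDR of 0.05, a fit of all 24 hearts, all 12 controls, the replicate number as a block, and leaving out each library. Deviations of same-numbered EAM and control hearts from their group means correlated over 0.1 in 4 of 4 pairs at D21 (0.107 to 0.316), in 2 of 4 at D10 and in 0 of 4 at D15, so the numbers were taken as pairs at D21 only, and there the block changed no call among the 10 genes. Scripts were tested on simulated data. Tables were made with pandas 2.3.3 and numpy 2.4.6, and plots with matplotlib 3.10.9, in Python 3.11.15. Protein sequences were not used here.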

Additional observations from a re-analysis of the deposited data

Results flagged for a closer look

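Single hearts lay far from the rest of their group for 5 of the 10 genes, by the ratio of the gap to the whole range. This held in 6 of the 60 pairs of a gene and a group of 4 hearts. The limit is one that about 1 in 20 single groups would pass by chance. The 10 genes share their hearts and correlate (median r of 0.95 after group means were subtracted), so the count of 6 cannot be set against that rate. Bcat2 was highest in D15 EAM replicate 3, at 96.9 CPM. Mccc2 was lowest in D10 EAM replicate 1, at 54.1 CPM. Among controls, Dbt was lowest in D15 replicate 1 at 124 CPM, Mccc1 was lowest in the same heart at 145 CPM, and Bckdk was highest in D15 replicate 2 at 139 CPM and in D21 replicate 2 at 137 CPM.

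The EAM effect differed between D10 and D15 by a test of the difference itself for 9 genes (16.7% of all genes tested passed as lower, and the count of 9 was 3 without D10 EAM replicate 2 or D15 EAM replicate 4), in log2 units on the TMM scale: Bcat2 by -0.68, Bckdha by -1.24, Bckdhb by -1.31, Dbt by -1.17, Bckdk by -0.73, Ivd by -1.31, Mccc1 by -1.03, Mccc2 by -1.46 and Auh by -1.24. Relative to cardiomyocyte markers and to respiratory chain genes the change turned for Bcat2 (0.44 and 0.45), Bckdk (0.37 and 0.38) and Mccc1 (0.037 and 0.053), and 0 of the 10 passed. Most of all genes tested had a change above 0 on these scales. Between D15 and D21 the effect differed for Bcat2, by 0.62 on the TMM scale and by -0.29 and -0.35 on those scales. That change cannot be told apart from the library code of the D21 EAM libraries.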

How the results depend on the processing

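The D15 count of 10 genes lower was kept in 19 of 21 alternatives, all 8 that left out a library among them. Scaled to cardiomyocyte markers it was 0 (1.22% of all genes lower), and scaled to respiratory chain genes it was 1 (2.19% of all genes), with 1 gene higher (71.8%). On the cardiomyocyte scale D15 values reversed for Bcat2 (0.68), Bckdk (0.53) and Mccc1 (0.10), and the change from D10 to D15 for Bcat2 (0.44), Bckdk (0.37) and Mccc1 (0.037). On the respiratory chain scale D15 values reversed for Bcat2 (0.57), Bckdk (0.42) and Mccc1 (0.013), and the change from D10 to D15 for Bcat2 (0.45), Bckdk (0.38) and Mccc1 (0.053). The change from D15 to D21 reversed for Bcat2 on both (-0.29 and -0.35) and for Bckdk on the second (-0.52). These scales shift all genes tested, as their construction implies. The D15 values of Mccc1 lay near 0 on them, with adjusted p = 0.674 and 0.933 in edgeR's test.

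With all 12 controls the count lower was 1 at D10 (Ppm1k; 3.94% of all genes) and 8 at D21 (18.2% of all genes), in place of 0. The D21 count was 1 with DESeq2 (10.8% of all genes), 1 with the likelihood ratio test (8.17%), 4 at an FDR of 0.05 (13.8%) and 2 in the fit of all 24 hearts (11.9%), and from 0 to 4 with a library left out (4 without EAM replicate 3). For the change from D10 to D15 the count of 9 was 0 on either marker scale and 3 to 10 with a library left out: 3 without D10 EAM replicate 2 or D15 EAM replicate 4, and 5 without D10 control replicate 1 or D15 EAM replicate 2. For the change from D15 to D21 the count of 1 higher was 0 with total counts, either marker scale or no filter, 2 with DESeq2 (13.1% of all genes), 5 at an FDR of 0.05 (17.8%) and 0 to 8 with a library left out (8 beside 12.7% of all genes), and on the respiratory chain scale 1 gene, Bckdk, was lower (27.4%). In controls the count lower was 2 with DESeq2 from D10 to D15 (1.58% of all genes), and from D10 to D21 it was 3 with DESeq2 (3.05%), 3 at an FDR of 0.05 (3.57%) and 0 to 1 with a library left out, in place of 1. Other than where stated the cause was not tested.

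With the replicate block the count was 10 at D15, 0 at D10 and D21, 0 from D15 to D21 and 0 for controls from D10 to D21; same-numbered hearts did not pair at D10, at D15 or between control days, and the change from D15 to D21 joins D15, where 0 of 4 pairs correlated over 0.1, with D21, where 4 of 4 did. The lowest count of any of the 10 genes in any heart was 488 reads.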
